A study of Mus musculus with 2 samples.

Results

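Splicing regulators are RNA-binding proteins that decide which exons and introns of a transcript are kept. The set described here holds 52 of the 43346 Ensembl genes in the tables, chosen by name from a list that uses no measured value, though it was drawn up with earlier results of these data known: 10 SR proteins, 2 Tra2 proteins, 16 hnRNP proteins, 3 PTB proteins, 11 genes of the Rbfox, Mbnl, Celf and Nova families, 3 STAR proteins, 3 Rbm proteins and 4 others. All 52 were matched to an identifier. The data are 2 total RNA libraries from embryonic limb, taken at day 13.5 of mouse development (E13.5) from B6NCrl animals, with both sexes pooled and no treatment or mutant allele named. RNA longer than 200 nt was kept, 10 ng was used and ERCC spike-in RNA was added. The 2 libraries are biological replicates made from separate tissue samples that share 1 donor entry, so the spread between them may be partly technical. The labels do not say whether forelimb, hindlimb or both were taken.

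SR proteins bind enhancer sequences in exons through an RNA recognition motif and recruit the splicing machinery through a domain rich in arginine and serine. hnRNP proteins coat nascent transcripts and often act against exon inclusion, while the Rbfox, Mbnl, Celf and Nova families switch exons in muscle, brain and other differentiating tissues. Many of these genes make transcripts that encode no full protein: a retained intron transcript keeps intron sequence, and a nonsense-mediated decay (NMD) transcript carries a premature stop codon that marks it for degradation. For several SR genes the premature stop lies in a highly conserved "poison" exon, through which the protein limits its own mRNA.

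The libraries held 31253053 and 42301448 expected counts over Ensembl genes in replicates 1 and 2, of which the 52 regulators took 531411 and 704273. Levels are given in TPM, read levels scaled by transcript length and by library total, as mean ± SD over n = 2 libraries. Limb tissue markers were at 1 TPM or more in 8 of 8 cases, muscle markers in 9 of 9 and red cell markers in 6 of 6. Markers of brain tissue reached that level in 0 of 5 cases and markers of neurons and axons in 6 of 10. In bulk tissue, fewer cells of a type and less RNA per cell cannot be told apart.

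Most of the regulators were abundant in the limb. A level of 1 TPM or more in both libraries was reached by 49 of the 52, against 34.6% of all Ensembl genes and 61% of protein-coding genes. A level of 50 TPM or more in both was reached by 34 of the 52, against 7.92% of all Ensembl genes and 22.9% of the genes at 1 TPM or more. The median level of the regulators was 113 TPM, against 17.2 TPM over genes at 1 TPM or more, and 26 of the 52 lay above the 90th percentile of those genes. Together they held 1.22% of the TPM of replicate 1 and 1.21% of that of replicate 2. The hnRNP genes summed to 6706 ± 0.594 TPM and the SR genes to 3778 ± 77.9 TPM. The 11 Rbfox, Mbnl, Celf and Nova genes summed to 318 ± 15.4 TPM and the Rbm genes to 30.8 ± 0.672 TPM.

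**Figure D1:**
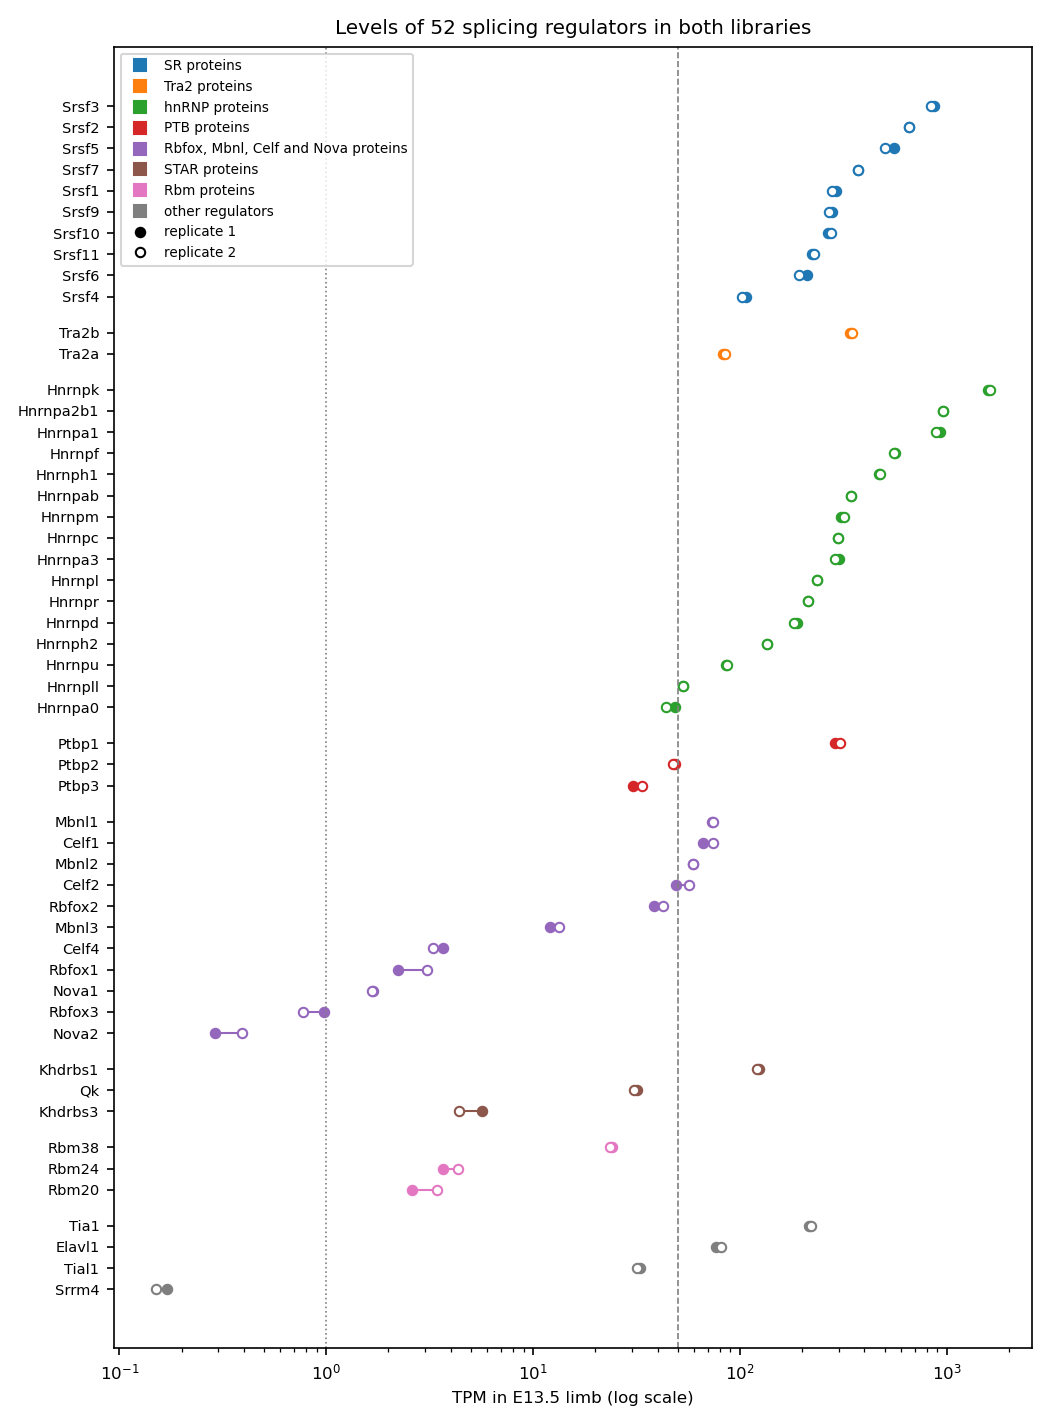
Level of each of the 52 regulators in TPM on a log axis, with filled points for replicate 1, open points for replicate 2 and a line joining them; colours mark families, the dotted line is at 1 TPM and the dashed line at 50 TPM. All 10 SR genes lie above the dashed line, with Srsf4 lowest at 105 TPM, while Rbfox3, Nova2 and Srrm4 lie left of the dotted line.

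Retained intron and decay transcripts made up a large share of several regulators. The share is the deposited percent of a gene's TPM given to each transcript, summed over the transcripts of both types. The 52 genes had 387 transcripts in the tables, of which 205 were annotated as protein coding, 84 as retained intron, 39 as decay and 55 as processed transcripts, with 4 of no known type. The types come from GENCODE M21, a later release than the M4 release used for the tables, and 344 of the 387 transcripts have the same length in both. At 1 TPM or more, 27 members had a coding transcript and at least 1 transcript of the 2 types, and 12 of these had 20% or more of their TPM from such transcripts in both libraries, against 33.4% of all genes of the same kind. Among members at 50 TPM or more, 9 of 20 did so, against 29.6% of all such genes. Counted by reads and not by TPM, 8 of the 27 reached 20%, against 21.9% of all such genes. By TPM, the median share of the 27 was 15.0%, against 12.3% over all 5859 such genes. The retained intron transcripts that held 5% or more of a member had a median length of 1309 nt, against 2827 nt for the main coding transcripts, and a shorter transcript has fewer reads at a given TPM.

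Retained intron and decay transcripts were also counted apart. Among the 25 members with a retained intron transcript the median share of that type was 8.74%, against 10.1% over all 5266 such genes. Of these 25, 7 reached 20% in both libraries, close to the 27.7% of all such genes. Among the 22 members with a decay transcript the median share of that type was 8.41%, against 3.89% over all 2500 such genes. A decay share of 5% or more by TPM in both libraries was seen in 14 of the 22, against 38.9% of all such genes. Of these 14, Srsf1, Srsf4, Srsf11, Tra2b, Hnrnpr and Tial1 did not hold 5% in both libraries by reads, while the rest did. No such count by reads was taken over all genes. A decay share of 20% or more was seen in 4 of the 22, close to the 17.6% of all such genes. These counts were not tested. The other 24 members had no transcript of either type in the tables, among them Srsf7, Srsf9, Srsf10, Tra2a, Hnrnpa1 and Hnrnpa2b1, and 8 members had a single transcript, so their share of 0 is set by the annotation.

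**Figure D2:**
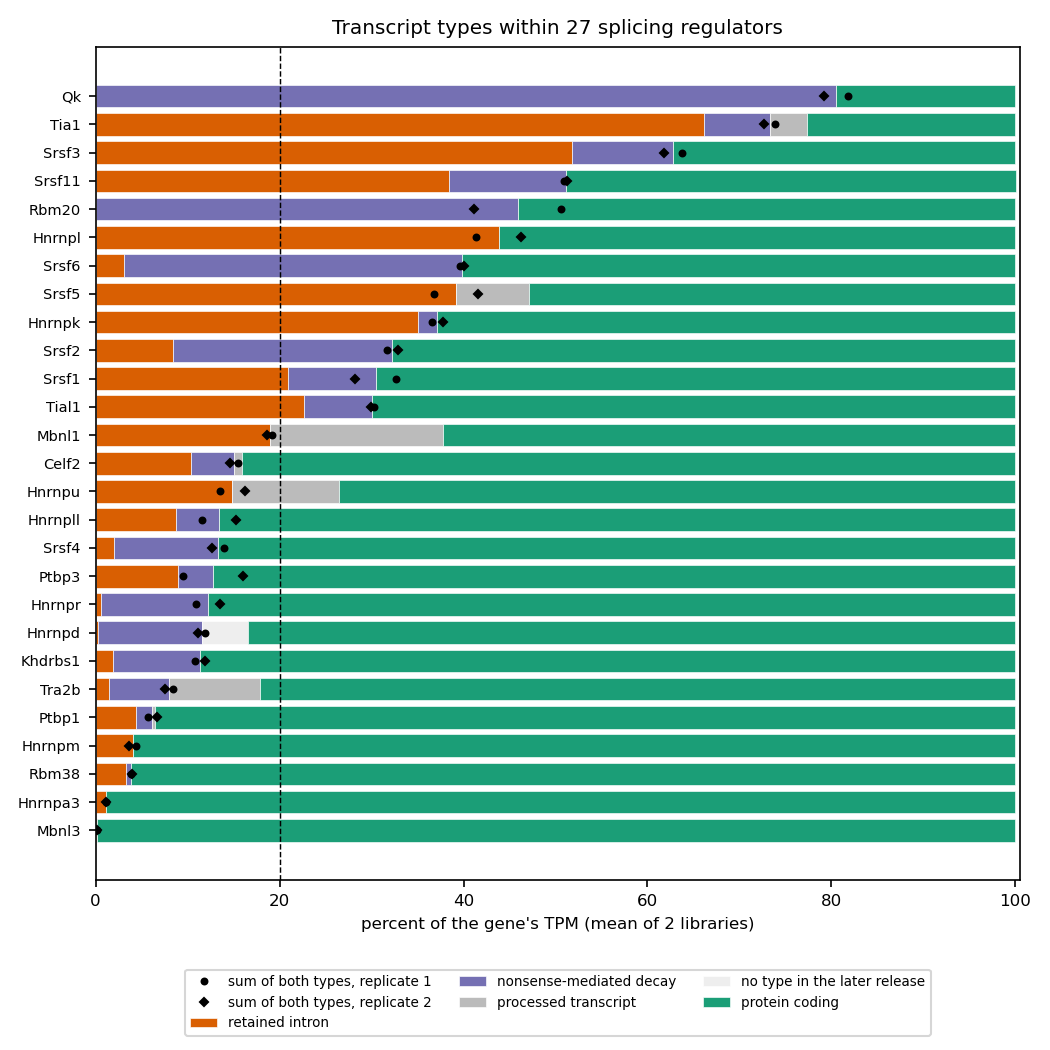
Percent of each gene's TPM held by each transcript type (stacked bars, mean of 2 libraries) for the 27 regulators at 1 TPM or more with a retained intron or decay transcript; points give the sum of those 2 types in each library and the dashed line marks 20%. The 12 genes from Qk to Tial1 lie past the line in both libraries, and Mbnl1, at 19.2% and 18.7%, is the nearest below it.

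Among the SR proteins, Srsf3, the smallest of the family and an adaptor for mRNA export, was highest at 868 and 842 TPM in replicates 1 and 2. Of its TPM, 63.8% and 61.8% came from the 2 types. The retained intron transcript Srsf3-205 alone held 45.8% and 46.4%, more than the coding transcript Srsf3-202 with 36.2% and 38.2%. The decay transcript Srsf3-201 held 12.5% and 9.56%, and a second retained intron transcript, Srsf3-204, held 5.44% and 5.86%. Of the gene's reads, Srsf3-205 took 21.8% and Srsf3-202 took 53.6% in the mean, so the order of these 2 transcripts by TPM is turned round by reads. Srsf3-205 was 910 nt long in the tables and is 2110 nt long in the later release, and Srsf3-201 was 1919 nt and is 2594 nt long, so the types of both rest on the later models.

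Srsf6, a larger SR protein, had the largest decay share of the SR genes, in transcripts whose length is the same in both releases. Its level was 211 and 193 TPM, and the decay transcript Srsf6-201 held 36.5% and 37.0% of it, next to 60.3% and 59.6% for the coding transcript Srsf6-203. By reads the decay transcript held 21.2% in the mean. Srsf6-201 has 1 exon of 268 nt that Srsf6-203 lacks, and a TAG stop codon inside it, 534 nt before the last exon junction. Srsf4, a close relative of Srsf6, had 107 and 102 TPM, of which its 2 decay transcripts held 12.4% and 10.2% together, with 6.76% and 6.77% in Srsf4-204. Among the 12 decay transcripts that held 5% or more of their gene in both libraries, 5 had their stop codon inside an exon that the main coding transcript lacks. These 5 exons are shown from their first base through the stop codon, which is in capitals, as read from the GRCm38 (mm10) transcripts, since the stop is the feature that assigns the type. The positions are chr17:29039454-29039487 on the plus strand for Srsf3, chr4:131884295-131884390 on the plus strand for Srsf4, chr2:162932815-162932966 on the plus strand for Srsf6, chr3:158024209-158024231 on the minus strand for Srsf11 and chr16:22259181-22259261 on the minus strand for Tra2b.
Srsf3-201: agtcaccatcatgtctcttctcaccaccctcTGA
Srsf4-204: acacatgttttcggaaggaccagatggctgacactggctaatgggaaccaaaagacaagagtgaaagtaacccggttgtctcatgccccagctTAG
Srsf6-201: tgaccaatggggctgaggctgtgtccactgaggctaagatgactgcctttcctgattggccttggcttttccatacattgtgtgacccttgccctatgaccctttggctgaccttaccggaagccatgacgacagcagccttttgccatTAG
Srsf11-206: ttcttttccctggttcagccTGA
Tra2b-206: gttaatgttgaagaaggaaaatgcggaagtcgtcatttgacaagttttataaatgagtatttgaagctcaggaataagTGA
The whole exons are 456, 188, 268, 109 and 276 nt long in that order. The stop codon is TGA in Srsf3, Srsf11 and Tra2b and TAG in Srsf4 and Srsf6, and it comes within 34 nt of the exon start in Srsf3 and 23 nt in Srsf11, but 152 nt in Srsf6.

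**Figure D3:**
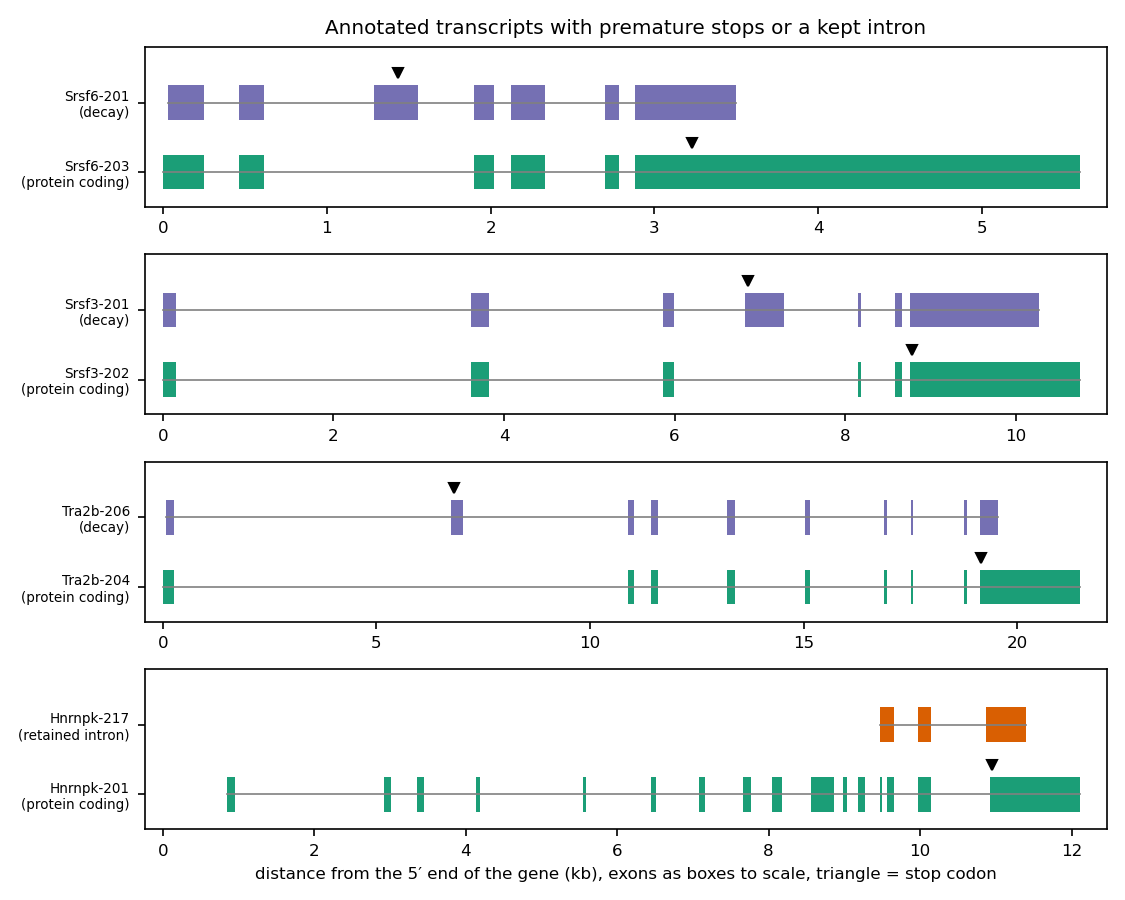
Exons (boxes, to scale) of the decay or retained intron transcript, upper row, and of the main coding transcript, lower row, of Srsf6, Srsf3, Tra2b and Hnrnpk, by distance in kb from the 5′ end of the gene in the later annotation release; triangles mark stop codons. In the first 3 genes the upper row has 1 exon that the lower row lacks, with its stop codon there, and Hnrnpk-217 is a short transcript at the 3′ end.

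Srsf11, an SR-related protein that takes part in the inclusion of neural microexons, had 222 and 228 TPM, with 50.9% and 51.3% from the 2 types. Of its 7 retained intron and 3 decay transcripts, those at 5% or more in both libraries were the retained intron transcripts Srsf11-208 with 14.6% and 16.1%, Srsf11-203 with 13.5% and 12.5% and Srsf11-213 with 7.25% and 7.29%, and the decay transcript Srsf11-206 with 7.10% and 8.66%. The coding transcript Srsf11-202 held 38.1% and 34.7%, so no single transcript held most of this gene.

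Srsf5, a relative of Srsf4 and Srsf6, had 553 and 502 TPM, of which 36.8% and 41.6% came from the 2 types. Nearly all of this was Srsf5-212, which keeps a whole intron of 1229 nt and held 35.9% and 40.9%. Srsf5-212, at 2720 nt, is longer than the main coding transcripts of the gene and took 54.9% of the gene's reads in the mean.

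Srsf1, the founding SR protein, and Srsf2, a component of nuclear speckles, passed 20% by TPM and not by reads. Srsf1 had 292 and 279 TPM, with 32.7% and 28.2% from the 2 types, but 8.62% of its reads in the mean. Its retained intron transcript Srsf1-203, of 759 nt, held 21.3% and 16.3%, and its decay transcript Srsf1-204 held 9.00% and 10.0%. Srsf2 had 660 TPM in each library, with 31.7% and 32.8% from the 2 types and 18.2% of its reads in the mean. Its decay transcript Srsf2-204, of 620 nt, held 23.2% and 24.0%, and Srsf2-203, which keeps a whole intron of 1059 nt, held 8.29% and 8.62%. Exons of Srsf2 overlap those of Mfsd11, at 36.3 and 36.2 TPM, and Mettl23, at 65.7 and 60.3 TPM, on the opposite strand. The use of strand in counting is not given in the sources used here, so reads of overlapping genes may be shared.

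The other SR genes, Srsf7, Srsf9 and Srsf10, had no transcript of either type. Srsf7, a close relative of Srsf3 with a zinc knuckle, had 374 and 372 TPM from 1 transcript. Srsf9, a close relative of Srsf1, had 279 and 270 TPM. Srsf10, which turns into a general repressor when it loses its phosphates, had 268 and 274 TPM, but coding transcripts accounted for 131 TPM in the mean. Most of the rest of Srsf10 was in short transcripts annotated as processed, the main one, Srsf10-207 of 717 nt, with 29.0% and 24.0%. Of the reads of Srsf10, Srsf10-207 took 9.19% in the mean, and coding transcripts took 83.3% and 85.3%.

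The 2 Tra2 proteins, which bind purine-rich exon enhancers, differed in level. Tra2b had 339 and 347 TPM and Tra2a had 83.3 and 84.5 TPM, a 4.09-fold higher level in Tra2b. The decay transcript Tra2b-206, with the 276-nt exon shown above, held 6.80% and 6.24% of Tra2b. Its length was 1590 nt in the tables and is 1687 nt in the later release.

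The hnRNP genes included the most abundant members. Hnrnpk, which binds cytidine-rich RNA through KH domains, was highest of all 52 at 1575 and 1623 TPM. Hnrnpa2b1 followed with 958 and 962 TPM and Hnrnpa1, a repressor of exon inclusion, with 928 and 891 TPM. The difference between Hnrnpa2b1 and Hnrnpa1 was within the spread between libraries (mean log2 ratio 0.08 against a limit of 0.15). Hnrnpa1 and several other hnRNP genes have near-identical processed pseudogenes in the genome, so reads may have been divided between copies and these levels are uncertain to that extent.

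Hnrnpk and Hnrnpl were the hnRNP genes past 20%, and each had a transcript that keeps 1 short intron. Hnrnpk had 36.6% and 37.7% from the 2 types, mainly from Hnrnpk-217 with 27.0% and 26.1%, next to 39.7% and 39.4% for the coding transcript Hnrnpk-201. Hnrnpk-217 is 874 nt long and took 11.8% of the reads in the mean. Hnrnpl, which binds CA repeats, had 236 TPM in each library, with 41.4% and 46.2% from retained intron transcripts and 27.0% of its reads in the mean. The largest of these, Hnrnpl-210 of 672 nt, held 22.7% and 26.4%. The retained introns are shown whole, 5′ to 3′ on the gene's strand with the GT and AG at their ends in capitals, since their small size sets them apart from the 1229-nt intron of Srsf5. They lie at chr13:58393775-58393852 on the minus strand for Hnrnpk and at chr7:28821274-28821391 on the plus strand for Hnrnpl (GRCm38).
Hnrnpk-217: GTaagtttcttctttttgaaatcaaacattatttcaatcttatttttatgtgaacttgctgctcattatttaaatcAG
Hnrnpl-210: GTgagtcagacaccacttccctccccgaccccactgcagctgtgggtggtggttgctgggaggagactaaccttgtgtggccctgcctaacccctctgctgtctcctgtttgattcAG
The kept intron is 78 nt long in Hnrnpk and 118 nt in Hnrnpl, and both begin with GT and end with AG.

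Of the 21 retained intron transcripts that held 5% or more of their gene in both libraries, 7 span a whole intron of the main coding transcript. The others hold intron bases without spanning a whole intron or, as in Srsf1-203, no base outside the exons of that transcript. The 21, over which the median length of 1309 nt was taken, include Srrm4-203. Srrm4 was below 1 TPM, with 22 and 21 counts, and is not among the 27 genes with a share.

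The remaining hnRNP genes ranged over levels from Hnrnpf, which binds runs of guanines, at 563 and 555 TPM, to Hnrnpa0, at 48.6 and 44.0 TPM, the lowest hnRNP gene. Hnrnph1, a close relative of Hnrnpf, had 470 and 476 TPM, and Hnrnph2 had 135 TPM in each library. Of Hnrnph1, transcripts annotated as coding made up 224 TPM in the mean, and the processed transcript Hnrnph1-212 alone held 24.3% and 25.7%. Hnrnph1-212 took 10.1% of the reads in the mean. Another processed transcript, Hnrnph1-205, spans 2 whole introns and took 25.4% of the reads in the mean, with 9.86% and 10.2% by TPM. The deposited intervals of its TPM were wide, 9.59 to 45.1 in replicate 1 and 0.317 to 47.2 in replicate 2. Hnrnph2, on chromosome X, had coding transcripts alone.

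Between these lay Hnrnpab at 344 ± 0.948 TPM, Hnrnpm at 313 ± 8.92 TPM, Hnrnpc, which binds uridine tracts, at 299 ± 0.530 TPM, and Hnrnpa3 at 294 ± 10.4 TPM. Hnrnpr had 213 ± 0.0141 TPM and Hnrnpd, also known for binding AU-rich elements that govern mRNA stability, 185 ± 5.12 TPM. Hnrnpu, a nuclear scaffold protein, had 86.0 ± 0.488 TPM and Hnrnpll, which controls Ptprc splicing in T cells, 53.1 ± 0.325 TPM. None of these reached 20%. Hnrnpr and Hnrnpd each had a decay transcript, Hnrnpr-206 with 10.3% and 12.9% and Hnrnpd-208 with 10.8% and 9.10%. Hnrnpu had 13.5% and 16.2% from retained intron transcripts by TPM and 1.57% by reads in the mean. Exons of Hnrnpm overlap March2, at 42.4 and 41.1 TPM, on the same strand.

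**Figure D4:**
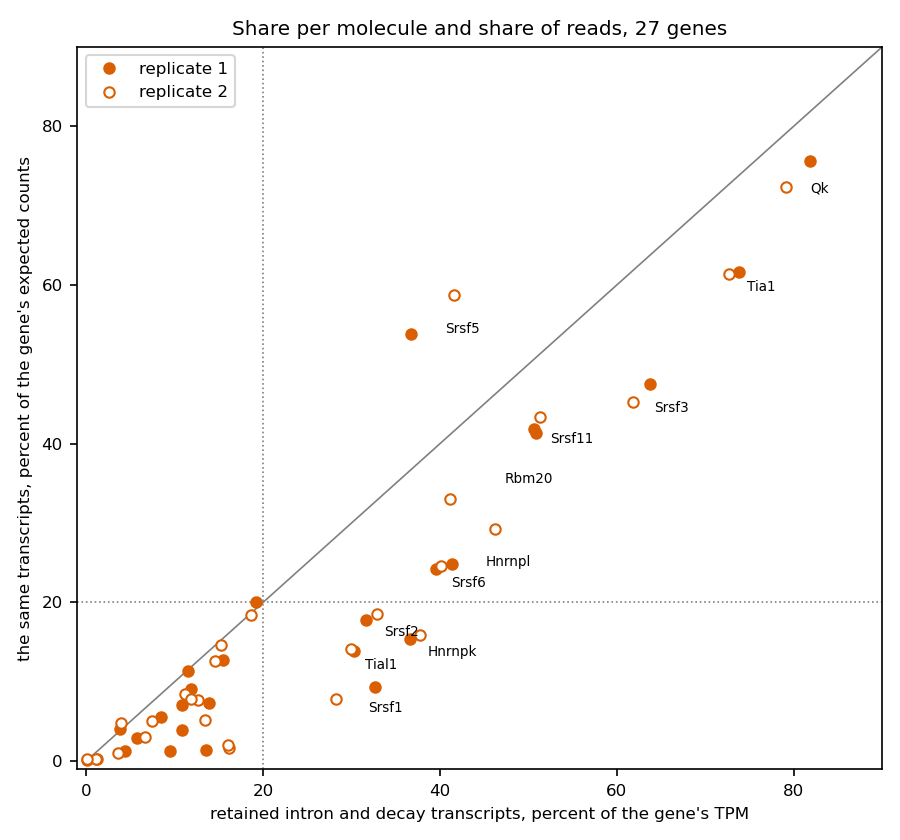
Share of retained intron and decay transcripts by TPM (horizontal axis, percent) and by expected counts (vertical axis, percent) for the 27 regulators, with filled points for replicate 1 and open points for replicate 2; the diagonal marks equal shares and dotted lines mark 20%. Srsf5 lies above the diagonal, while Srsf1, Srsf2, Hnrnpk and Tial1 lie right of 20% by TPM and below 20% by counts.

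The PTB proteins bind pyrimidine tracts and repress exons. Ptbp1, the general member, which holds neural exons silent outside the nervous system, had 288 and 305 TPM. Ptbp2, the member that takes over in differentiating neurons, had 48.4 and 47.7 TPM, and Ptbp3 had 30.5 and 33.6 TPM. Ptbp1 was thus 6.16-fold above Ptbp2 and 9.23-fold above Ptbp3. Exons of Ptbp1 overlap Plppr3 on the opposite strand, which was listed at 114 and 118 TPM, and the part of shared reads in either level was not tested. Ptbp1 had 5.70% and 6.66% from the 2 types, Ptbp3 had 9.53% and 16.0%, and Ptbp2 had a single, coding transcript.

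The tissue-switching families were lower and uneven. Of the Rbfox proteins, which bind GCAUG, Rbfox2 had 38.6 and 42.4 TPM, Rbfox1 had 2.23 and 3.08 TPM, and Rbfox3, the antigen known as NeuN in neurons, had 0.980 and 0.770 TPM. Rbfox2 was 14.9-fold above Rbfox1 and 41.8-fold above Rbfox3, a gene with 56 and 57 counts. The deposited credibility intervals of Rbfox3, 1.17 to 2.63 TPM and 0.880 to 1.91 TPM, lie above its TPM in each library. By deposited posterior means Rbfox3 averaged 1.60 TPM, past 1 TPM, and the log2 ratio of Rbfox2 over Rbfox3 was 4.56, against 5.39 by TPM. For Rbfox1 the direction between libraries depended on the unit: TPM was higher in replicate 2, while scaled counts gave a log2 ratio of -0.15, replicate 2 over replicate 1. The 1191-nt transcript Rbfox1-202 held 51.6% of Rbfox1 in replicate 1 and 80.5% in replicate 2, against 48.5% and 19.5% for the 4084-nt Rbfox1-201.

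Mbnl proteins, which are trapped by the expanded repeats of myotonic dystrophy, and Celf proteins, which often act against them, were led by Mbnl1 and Celf1. Mbnl1 had 73.0 and 74.0 TPM, Mbnl2 had 59.0 and 59.2 TPM, and Mbnl3, the member tied to immature muscle cells, had 12.1 and 13.3 TPM. Mbnl1 was 1.24-fold above Mbnl2 in total TPM, but from coding transcripts alone Mbnl1 had 45.8 TPM and Mbnl2 59.1 TPM in the mean, which turns the order round. Of Mbnl1, 19.2% and 18.7% came from retained intron transcripts, the main one being Mbnl1-225 with 13.2% and 12.6%, and a further 17.7% and 13.8% from the processed transcript Mbnl1-212.

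Celf1 had 66.4 and 74.1 TPM, Celf2 had 49.3 and 56.7 TPM, and Celf4, a mainly neural member, had 3.67 and 3.27 TPM. Celf1 was 1.33-fold above Celf2 and 19.7-fold above Celf4. Celf2 had 15.5% and 14.6% from the 2 types, with no such transcript at 5% or more in both libraries. The Nova proteins, which switch exons in neurons, were low. Nova1 had 1.68 and 1.67 TPM from 242 and 318 counts, and Nova2 had 0.290 and 0.390 TPM from 47 and 78 counts. Their ratio was within the spread between libraries at these levels (mean log2 ratio 2.02 against a limit of 2.12), but past it from coding transcripts alone, with a log2 ratio of 2.32.

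Beside these low levels, the 10 neuron and axon markers summed to 98.9 and 96.8 TPM, with a median of 7.89 TPM, and Chat, which defines motor neurons among them, was at 0 and 0.0300 TPM. The part of nerve RNA in the levels of Rbfox1, Rbfox3, Celf4, Nova1, Nova2 and Ptbp2 was not tested. The 9 muscle markers summed to 1958 and 1993 TPM, led by Actc1 at 692 and 686 TPM, and their part in the levels of Rbm20, Rbm24, Rbfox1 and the Mbnl genes was likewise not tested.

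Of the STAR proteins, Khdrbs1, known as Sam68, had 124 and 121 TPM and Khdrbs3, its relative enriched in brain, had 5.66 and 4.41 TPM, a 24.0-fold higher level in Khdrbs1. The decay transcript Khdrbs1-202 held 8.87% and 10.0% of Khdrbs1. Qk, which governs splicing in myelinating glia and muscle, had 31.8 and 30.8 TPM and the largest share of the 2 types among the 27 members, 81.9% and 79.2%. All of it was Qk-202, which was 4658 nt long in the tables and is 5832 nt long in the later release that types it as decay. The other transcript, Qk-201, is annotated as coding and held 18.2% and 20.8%. The tables list only these 2 transcripts of Qk, so reads from any isoform not listed would be assigned to one of them or to none.

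The Rbm proteins had the lowest summed level of any group. Rbm38, which acts in late red cell splicing, had 24.1 and 23.5 TPM. Rbm24, a regulator of muscle exons, had 3.67 and 4.33 TPM, and Rbm20, the regulator of titin splicing in the heart, had 2.59 and 3.44 TPM. The difference between Rbm24 and Rbm20 was within the spread between libraries (mean log2 ratio 0.41 against a limit of 0.72). From coding transcripts alone Rbm24 was 2.38-fold above Rbm20, past the spread, and on expected counts the log2 ratio was -0.43. The decay transcript Rbm20-201 held 50.6% and 41.2% of Rbm20, a share that rests on 298 and 543 counts of the gene.

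Tia1 and Tial1, paired proteins that help the U1 particle at weak splice sites and assemble stress granules, differed in level and in transcript types. Tial1 had 33.1 and 31.9 TPM and Tia1 had 215 and 222 TPM, a 6.72-fold lower level in Tial1. Of Tia1, however, 73.9% and 72.7% came from the 2 types, and coding transcripts alone gave 22.7 TPM for Tial1 and 49.5 TPM for Tia1, a 2.17-fold lower level in Tial1. The Tia1 share included 5 retained intron transcripts at 5% or more, led by Tia1-213 with 17.6% and 19.0% and Tia1-212 with 14.0% in each library, while the coding Tia1-202 held 13.4% and 14.1%. By reads Tia1-202 came first with 27.6% in the mean, before Tia1-212 with 23.7% and Tia1-213 with 16.1%. Of Tial1, 30.3% and 29.9% came from the 2 types by TPM and 14.0% by reads in the mean. Its main retained intron transcript, Tial1-208, held 14.1% and 16.2% and keeps an intron of 334 nt in the later release, where its length is 4266 nt against 2224 nt in the tables.

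Elavl1, known as HuR, which binds AU-rich elements, had 76.9 and 81.3 TPM from 1 transcript. Srrm4, the activator of neural microexons, was the lowest of the 52 at 0.170 and 0.150 TPM, with 22 and 21 counts.

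Ratios between related genes were compared with the spread between libraries in 23 pairs. The limit was 2 times the combined SD of 500 genes of nearest abundance, and both libraries had to give the same sign. The rule was met by 19 of 23 pairs. The limit measures the spread between libraries only. No share was taken over other pairs of genes, so this count does not set these pairs apart. The first gene was the higher in 16 of the 19 and the second in 3. This split depends on the order in which each pair was written, with earlier results of these data known. The 3 with the second gene higher were Ptbp3 over Ptbp2 (log2 ratio -0.58), Tial1 over Tia1 (-2.75) and Srsf4 over Srsf6 (-0.95). The 4 pairs within the spread were Nova1 and Nova2, Rbm24 and Rbm20, Hnrnpa2b1 and Hnrnpa1, and Srsf1 and Srsf9. Counting coding transcripts alone changed several of these ratios. Srsf3 over Srsf7 was 2.29-fold in total TPM, while coding transcripts gave 318 TPM for Srsf3 and 373 TPM for Srsf7, so that Srsf7 was the higher. Srsf1 over Srsf9 was 1.04-fold in total TPM and within the spread, while coding transcripts gave 198 TPM for Srsf1 and 262 TPM for Srsf9, past the spread. Hnrnph1 over Hnrnph2 was 3.50-fold in total TPM and 1.66-fold from coding transcripts.

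**Figure D5:**
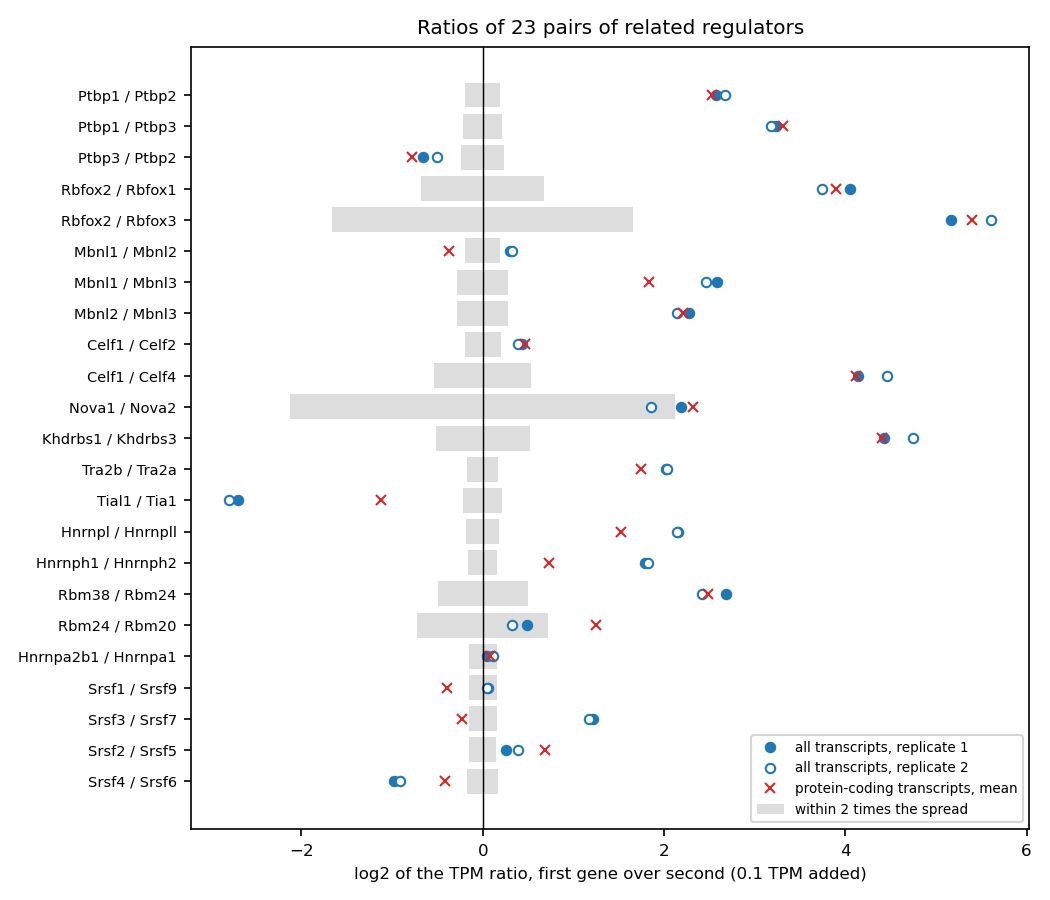
Log2 of the TPM ratio of the first gene over the second for 23 pairs of related regulators, with filled and open points for replicates 1 and 2, crosses for the mean ratio from coding transcripts alone, and grey bars for 2 times the spread between libraries. Crosses fall on the other side of 0 from the points for Mbnl1 over Mbnl2, Srsf3 over Srsf7 and Srsf1 over Srsf9.

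The libraries differed little in these genes. None of the 52 was more than 1.5-fold apart in scaled expected counts, against 5.51% of the 17441 genes that had 10 or more counts per library, over which the common coefficient of variation was 5.19%. This comparison is of 1 library with 1 library and carries no p-value. The regulators had a median of 113 TPM, against 17.2 TPM over genes at 1 TPM or more. No share was taken over genes of like level, so a trait of the regulators cannot be told apart from their abundance. Of the 52, 46 had a log2 ratio within 0.2, a count not made over all genes. The 6 beyond 0.2 were Srrm4 (-0.49), Rbm20 (0.43), Rbfox3 (-0.40), Khdrbs3 (-0.38), Nova2 (0.30) and Rbm24 (0.22), replicate 2 over replicate 1. All 6 were among the lower members, at 5.04 TPM or less in the mean.

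The machinery around these regulators was also present. All 7 SR protein kinases, which phosphorylate SR proteins, were at 1 TPM or more, with a median of 39.6 TPM, and Clk1, the highest, had 203 and 192 TPM. Of Clk1, 68.6% and 72.3% came from retained intron and decay transcripts. All 10 nonsense-mediated decay factors reached 1 TPM, with a median of 19.6 TPM and 0 of 10 at 50 TPM. All 28 core spliceosome genes reached 1 TPM and 24 reached 50 TPM, with a median of 119 TPM, close to the 113 TPM of the regulators. Of 33 further relatives, 29 reached 1 TPM and 18 reached 50 TPM, and the 4 below 1 TPM were Srrm3, Elavl3, Celf3 and Celf6.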

How the data were processed

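Total RNA from E13.5 limb was measured in 2 libraries of 1 group. The authors quantified each library on mm10 and GENCODE M4, as the deposited text files state. The sources used here give no aligner, quantifier, version or use of strand. The deposited expected counts are estimates that divide shared reads among transcripts. The deposited TPM and FPKM values scale these by effective length, and the deposited IsoPct column gives each transcript as a percent of its gene's TPM, per the file headers. The bounds of the TPM credibility intervals are deposited as a score per gene or transcript. Their width, in the library where it was larger, was 7.00% of the posterior mean TPM in the median of the regulators. It measures counting and assignment error only. The intervals belong to the posterior mean and need not hold the deposited TPM.

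Symbols matched 42462 of 43346 identifiers. Transcript types, structures and sequences came from GENCODE M21 on GRCm38, which holds 97.9% of the transcripts, 90.1% of them at the same length. Rows with no Ensembl identifier (26345, including spike-ins, which took 2.11% and 2.07% of counts) were left out. Reads of unspliced RNA in total RNA can be assigned to retained intron transcripts, and their part was not tested.

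Expected counts were rounded, filtered at 10 in each library and scaled by TMM in edgeR 4.0.16 (R 4.3.3), with 0.5 added for ratios. DESeq2 1.42.0 gave alternative size factors. Gene pairs used TPM with 0.1 added. Python 3.11.15, numpy 2.4.6, pandas 2.3.3 and matplotlib 3.10.9 were used for the rest. The ratio step was tested on simulated data. The members, pairs and lists were chosen with earlier results of these data known. Named in full were the 5 highest and 5 lowest members, all small families, members past 20% and their transcripts at 5% or more. Alternatives covered other units, thresholds, pseudocounts, size factors, posterior means, coding transcripts alone, types of unchanged length alone, and each library left out. Shares were also taken over every type other than protein coding.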

Additional observations from a re-analysis of the deposited data

How the results depend on the processing

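No paired analysis was possible because the 2 libraries form a single group. Leaving out each library in turn gave 49 members at 1 TPM (50 by posterior means, with Rbfox3), 34 to 35 at 50 TPM, 12 at 20% or more and 19 to 20 pairs past the spread. At 50 TPM the count was 30 by FPKM, 31 from coding transcripts and 27 at a threshold of 100 TPM. A 10% threshold gave 20 members in place of 12, and counting every type other than protein coding gave 16. The count was 8 by reads and 9 when types were used for transcripts of unchanged length alone, where the shares of Qk and Srsf3 were 0 by construction. Tial1 also fell below 20% under that setting, to 15.8% and 13.3%. The log2 ratio of Mbnl1 over Mbnl2 reversed to -0.19 on expected counts and -0.37 from coding transcripts alone, and that of Srsf3 over Srsf7 to -0.23 from coding transcripts alone. The pairs past the spread numbered 16 on expected counts and 22 from coding transcripts, which added Nova1 over Nova2, Rbm24 over Rbm20 and Srsf1 over Srsf9. With DESeq2 size factors, deposited TPM, no count filter, 5 counts added or a 2-fold threshold, 0 members were past the threshold between libraries. Beyond 1 SD, levels moved in 24 of 52 members with posterior means and 31 with coding transcripts alone, and shares in 25 of 27 by reads. The 2 libraries limit every SD, and the shares depend on the annotation and on how reads were divided among overlapping transcripts. Settings on coding transcripts, reads and unchanged length were chosen after the data were seen.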
